A study of Mus musculus with 12 samples.

Results

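The collagen chains other than collagen IV were followed in cultured mouse fat cells that had received a let-7d-5p mimic, a let-7e-5p mimic or a negative control. Members were chosen by name alone, as genes whose symbol has the form Col, number, a, number, without the Col4a genes. The count table held 27 of them among 15754 genes, and 11 further genes of that form were not analysed here (Col2a1, Col6a4, Col6a6, Col9a1, Col9a2, Col10a1, Col17a1, Col19a1, Col22a1, Col25a1 and Col26a1). By the structure they build, the members were 10 fibrillar chains, 2 network chains, 4 beaded-filament chains, 5 fibril-associated (FACIT) chains, 2 multiplexin chains, 2 transmembrane chains, and Col7a1 and Col28a1, which belong to none of these classes.

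All cells came from the epididymal fat of wild-type C57BL/6 males, 8 weeks old and fed chow. The stromal vascular fraction, the part of fat tissue that holds precursor cells together with vascular and immune cells, was turned into fat cells with rosiglitazone (1 µM), insulin (850 nM), dexamethasone (1 µM) and IBMX (250 µM), the first 2 also in the later medium. Mimic or negative control was given by reverse transfection on day 4 and RNA was harvested on day 7, so the controls carried a transfection too. Each group had 4 libraries. Replicates 1 and 2 belonged to one series of sample identifiers (series 1) and replicates 3 and 4 to another (series 2), and the labels do not say what separates them. The labels do not state whether replicates were separate cultures or animals, and the p-values below therefore reflect library-to-library spread that may be technical.

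Collagens are extracellular proteins wound from chains into triple helices. Fibrillar collagens (types I, III, V, XI, XXIV and XXVII) build the tension-bearing fibrils, FACIT chains sit on their surface, collagen VI forms beaded microfilaments that surround fat cells, collagen VIII forms hexagonal networks, and the multiplexins XV and XVIII lie at basement membranes. In fat tissue the collagen VI meshwork is known for limiting how far fat cells can enlarge. A let-7 microRNA loaded into an Argonaute protein pairs with messages mainly through its seed, the bases 2 to 8, and the paired messages are degraded or less translated.

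The mature sequences of the microRNAs are shown with the seed in capitals, since the comparisons turn on whether 2 mimics with the same seed act on the same chains (RefSeq, GRCm38). The let-7d-5p bases lie at chr13:48536078-48536099 on the minus strand and the let-7e-5p bases at chr17:17830366-17830387 on the plus strand.
let-7d-5p: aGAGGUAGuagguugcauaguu
let-7e-5p: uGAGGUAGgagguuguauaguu
Both are 22 bases long, share the seed and differ at 3 positions counted from the 5′ end, 1, 9 and 16.

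A full match to this seed followed by an A (8mer, CTACCTCA, sought on the message strand only) stands in the 3′ UTR of 3 of the 27 members, 11.1%, against 3.74% of the 13541 tested genes with an annotated 3′ UTR. The 3 are major fibril chains, Col1a2, Col3a1 and Col5a2. Their sites are printed with the 8mer in capitals because these are the members with the longest match.
Col1a2 (chr6:4541063-4541092, plus strand, GRCm38): tccaaaggtttgaaCTACCTCAagacactt
Col3a1 (chr1:45349136-45349165, plus strand, GRCm38): cctccctatgttaaCTACCTCAactggtca
Col5a2 (chr1:45375093-45375122, minus strand, GRCm38): tttcttagcatgacCTACCTCAtctctgca
A shorter match stood in 8 more members, either CTACCTC (7mer-m8) or TACCTCA (7mer-A1), so that 40.7% of the members had a match of at least 7 bases against 17.0% of all tested genes. Both shorter motifs are parts of the 8mer, and a member was counted once, by its longest match. Of the members with a 7mer, Col23a1, with 2 sites, rose with let-7d. Col1a1, Col9a3, Col14a1, Col24a1 and Col27a1 were not called with either mimic. The 2 that fell with let-7d, Col6a2 and Col15a1, were picked by that fall and carry the following sites, with the 7mer in capitals.
Col6a2 (chr10:76598494-76598523, minus strand, GRCm38): aggcaggacttttgaTACCTCAgccacatg
Col15a1 (chr4:47312419-47312448, plus strand, GRCm38): aaaccaaagaaaacaTACCTCAgtatactc
The median 3′ UTR of the members was 1016 bases and that of all tested genes 1187 bases, while their coding sequences were longer, 4395 against 1311 bases at the median. In the coding sequence, 22.2% of the members and 19.4% of all tested genes held a match of at least 7 bases. A match is a run of letters and does not show that the site is used.

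The libraries held 15071299 counts (control replicate 2) to 33396316 counts (let-7e replicate 3). The series differed more than the groups, with 81.7% of all tested genes called between them. Fat cell markers, Adipoq and Plin1 among them, summed to 21607 to 24203 CPM (counts scaled to the library total) in series 1 and 5210.4 to 7255 CPM in series 2, and macrophage markers to 281 to 427 CPM in series 1 and 30.3 to 184 CPM in series 2. Lep, which marks mature fat cells, was not analysed here. Every mimic comparison below therefore carries a series term, and the chains described in full are given by library or by series. Levels of bulk RNA do not tell fewer cells of a type from less RNA per cell.

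Collagen messages were abundant in these cultures. The 27 chains took 4.49% to 5.15% of all counts in the 6 libraries of series 1 and 2.50% to 2.78% in the 6 of series 2. Col1a1, Col1a2 and Col3a1 alone made up 70.2% to 77.4% of these collagen counts. Col1a1, the main chain of collagen I (chromosome 11, 94936224 to 94953042, plus strand), had 14756 and 17159 CPM in the control libraries of series 1 and 5881 and 5996 CPM in those of series 2.

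Levels per kilobase used exons merged over all annotated transcripts of a gene. For Col1a2 that gave 12426 bases, against 4119 of coding sequence and 882 of 3′ UTR in the transcript with the longest 3′ UTR. The order of genes and the size of ratios between chains therefore depend on the annotated transcripts. By this measure the 3 highest chains in the controls of both series were Col1a1, Col3a1 and Col1a2. Their level in series 1 was 2431 CPM per kilobase for Col1a1, 948 for Col3a1 and 788 for Col1a2, and in series 2 it was 905, 764 and 451. Col6a1 (536 CPM per kilobase in series 1), Col5a1 (278), Col15a1 (272), Col5a2 (264), Col6a2 (237) and Col6a3 (163) followed. In series 1 the ranges of the 2 control libraries overlapped between neighbours in this order from Col5a1 to Col6a2, and that of Col6a2 reached those of Col15a1 and Col5a2 as well, so their order is not resolved. The network chains were far lower, 8.62 CPM per kilobase for Col8a1 and 3.85 for Col8a2. The 11 lowest chains lay at 0.221 to 3.22 CPM per kilobase in the controls of series 1, and among them Col28a1 (17.5) and Col11a1 (4.80) were higher in those of series 2.

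**Figure D1:**
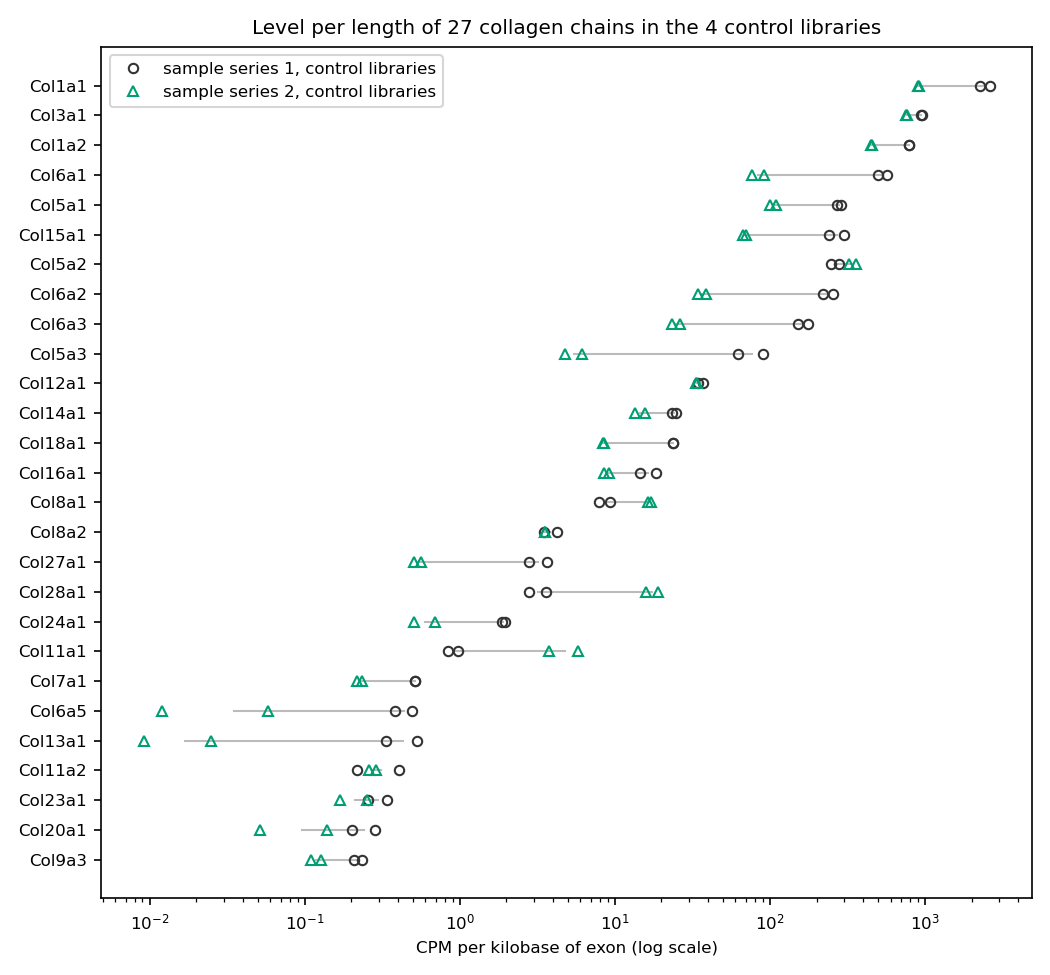
Level of each of the 27 chains in the 4 control libraries, in CPM per kilobase of exon on a log axis, with circles for series 1 and triangles for series 2 and a line joining the means of the series. Col1a1, Col3a1 and Col1a2 lead in both series. Col28a1, Col11a1, Col8a1 and Col5a2 lie higher in series 2 and the collagen VI chains lie higher in series 1.

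With the let-7d mimic, both collagen VIII chains, Col6a3 and Col6a2 of collagen VI, the fibril chains Col5a1 and Col11a1, and the basement membrane chain Col15a1 fell, while Col16a1, Col23a1 and Col28a1 rose. With the let-7e mimic both collagen VIII chains, Col6a1, Col6a2, Col6a3 and Col5a1 fell and Col16a1 rose. The largest fall was that of Col8a2 with either mimic, 2.45-fold with let-7d and 2.16-fold with let-7e. Calls are those of edgeR's quasi-likelihood test, with an adjusted p below 0.05 over all 15754 genes. With let-7d, 10 of the 27 chains were called (7 lower, 3 higher), where 16.2% of all tested genes were called (9.81% lower, 6.41% higher). With let-7e, 7 of 27 were called (6 lower, 1 higher), where the share over all tested genes was 9.50% (5.69% lower, 3.81% higher). The 2 comparisons share their control libraries, so calls that recur in both are not independent. The median log2 fold change over the 27 chains was -0.06 with let-7d and -0.07 with let-7e, against 0.00 over all tested genes in each comparison. The main chains of collagens I and III did not pass the test with either mimic.

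**Figure D2:**
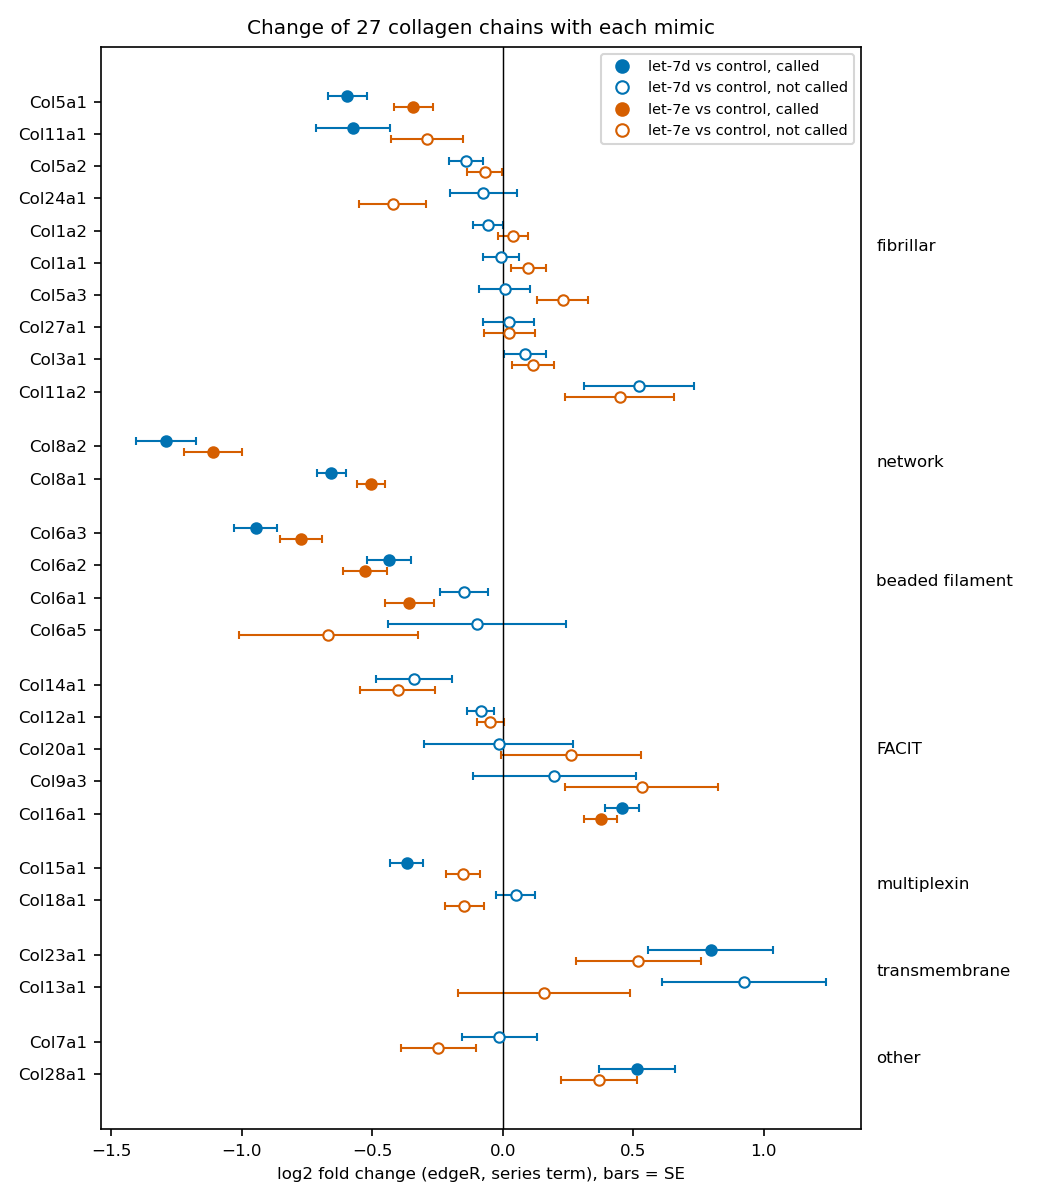
Log2 fold change of each of the 27 chains against control with let-7d (blue) and let-7e (orange), from edgeR with a series term and with bars for the standard error, ordered by class. Filled points passed the adjusted p threshold of 0.05, and Col8a2 and Col6a3 lie lowest with both mimics.

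The network chains Col8a1 and Col8a2 make collagen VIII, a short-chain collagen of vessel walls and of subendothelial matrix. Col8a2 (chromosome 4, 126286793 to 126314330, plus strand) had 19.0, 15.6, 15.8 and 16.0 CPM in control replicates 1 to 4, 5.93, 6.11, 7.41 and 8.19 CPM with let-7d, and 7.69, 9.09, 6.77 and 7.75 CPM with let-7e. All 8 mimic libraries lay under all 4 controls, in both series. Its log2 fold change was -1.29 ± 0.11 (SE, n = 4 against 4, edgeR adjusted p = 6.21e-06) with let-7d and -1.11 ± 0.11 (edgeR adjusted p = 2.30e-05) with let-7e. Within series 1 and series 2 the change was -1.57 and -1.05 with let-7d, and -1.08 and -1.13 with let-7e.

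Col8a1 (chromosome 16, 57624258 to 57754737, minus strand) had 72.7, 62.4, 133 and 127 CPM in the controls, 42.0, 43.5, 84.3 and 90.4 CPM with let-7d, and 46.2, 48.3, 94.8 and 93.2 CPM with let-7e. Within each series every mimic library lay under both controls. The log2 fold change was -0.66 ± 0.055 (edgeR adjusted p = 4.60e-06) with let-7d and -0.51 ± 0.054 (edgeR adjusted p = 3.71e-05) with let-7e. Col8a2 fell further than its partner, so that the ratio of Col8a1 to Col8a2 per length went from 2.25 to 4.07 with let-7d and 3.24 with let-7e in series 1, and from 4.69 to 6.43 and 7.46 in series 2. The mimic libraries did not overlap the controls in this ratio in either series, which was not tested.

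Collagen VI is assembled from Col6a1, Col6a2 and Col6a3 in equal measure, and the C-terminal part of its Col6a3 chain is released as endotrophin, a signalling fragment made by fat cells. Col6a3 (chromosome 1, 90765923 to 90843971, minus strand) had 1809.6 and 2101 CPM in the control libraries of series 1 and 280.3 and 314 CPM in those of series 2. With let-7d it had 1016 and 1029 CPM in series 1 and 148 and 176 CPM in series 2, and with let-7e it had 1304 and 1263 CPM and 146 and 167 CPM. In both series the mimic libraries lay well under the controls. The log2 fold change was -0.95 ± 0.082 (edgeR adjusted p = 5.53e-06) with let-7d and -0.77 ± 0.082 (edgeR adjusted p = 3.52e-05) with let-7e.

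Col6a2 (chromosome 10, 76595762 to 76623630, minus strand) had 1819.8 and 2130.2 CPM in the controls of series 1 and 321 and 286 CPM in those of series 2. It had 1385 and 1388 CPM (series 1) and 266 and 234 CPM (series 2) with let-7d, and 1520.2 and 1438 CPM and 184 and 210.5 CPM with let-7e. With let-7d it fell by 0.44 ± 0.084 (edgeR adjusted p = 0.00236) on the log2 scale and by 0.53 ± 0.084 with let-7e (edgeR adjusted p = 0.000943). Within series 2 alone the let-7d change was -0.30 with an edgeR adjusted p of 0.0947.

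Col6a1, the neighbour of Col6a2 on chromosome 10 (76708792 to 76726168, minus strand), moved less. It had 2186 and 2505 CPM in the controls of series 1 and 400 and 336 CPM in those of series 2, where let-7d gave 2036, 2020.0, 395 and 336 CPM and let-7e gave 2081, 1899, 239.7 and 295 CPM. In series 2 the let-7d libraries stood level with their controls. The log2 fold change was -0.15 ± 0.093 with let-7d, not called (edgeR adjusted p = 0.312), and -0.36 ± 0.093 with let-7e (edgeR adjusted p = 0.0236). That let-7e call rests on single libraries. It was lost (edgeR adjusted p from 0.0548 to 0.0896) without control replicate 2 or 3 or without let-7e replicate 2, 3 or 4. The fourth chain, Col6a5, had 3 to 80 counts per library and was not called with either mimic, at -0.10 ± 0.34 with let-7d and -0.67 ± 0.34 with let-7e. Its let-7d change was -0.54 ± 0.23 in series 1 and 1.19 ± 0.66 in series 2.

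Within collagen VI, message ratios shifted with both mimics. The absolute size of these ratios depends on the merged exon lengths, 4380 bases for Col6a1, 8326 for Col6a2 and 11963 for Col6a3. Their shifts between groups do not depend on these lengths. Per length, Col6a3 stood at 0.305 of Col6a1 in the controls of series 1 and at 0.300 in those of series 2. With let-7d the ratio was 0.185 and 0.164, and with let-7e it was 0.236 and 0.215. The ratio of Col6a2 to Col6a1 went from 0.443 and 0.436 to 0.360 and 0.359 with let-7d, and to 0.391 and 0.389 with let-7e. Mimic and control libraries did not overlap in either ratio, while between the series, in which each chain differed 6.75-fold to 7.36-fold, both ratios were nearly level in the controls.

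**Figure D3:**
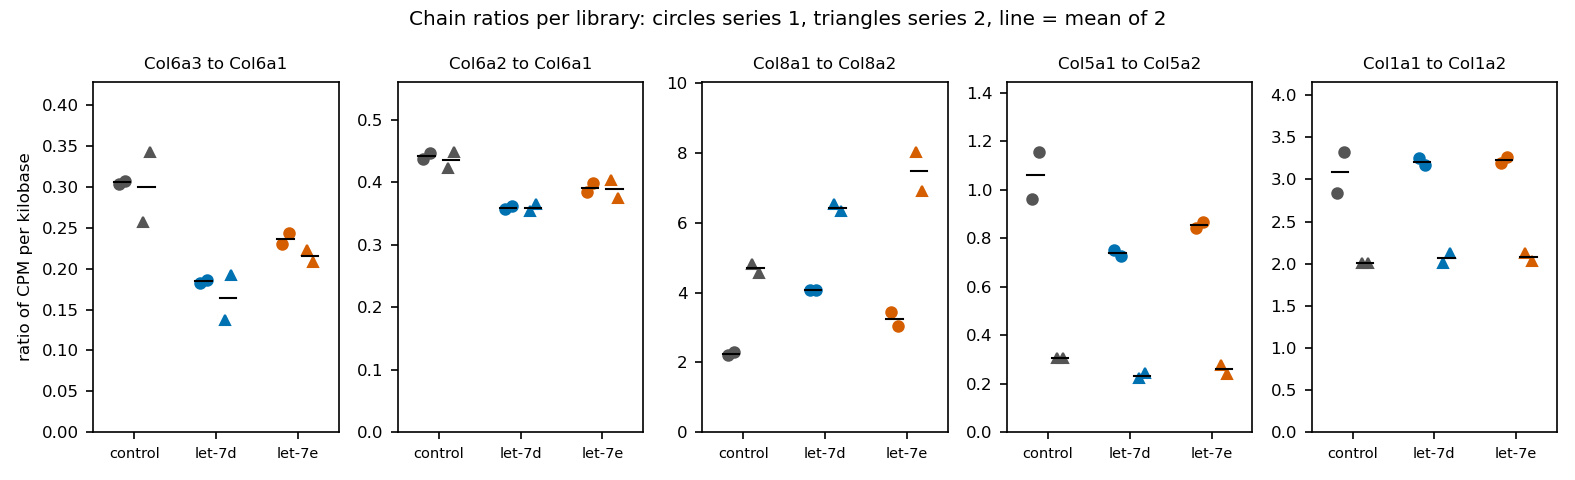
Ratio of 2 chains of one collagen per library, each in CPM per kilobase, with circles for series 1, triangles for series 2 and a line at the mean of 2 libraries. The Col6a3 to Col6a1 ratio lies at 0.257 to 0.343 in the controls and at 0.137 to 0.243 with the mimics, while the Col1a1 to Col1a2 ratio differs between series and hardly between groups.

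**Figure D4:**
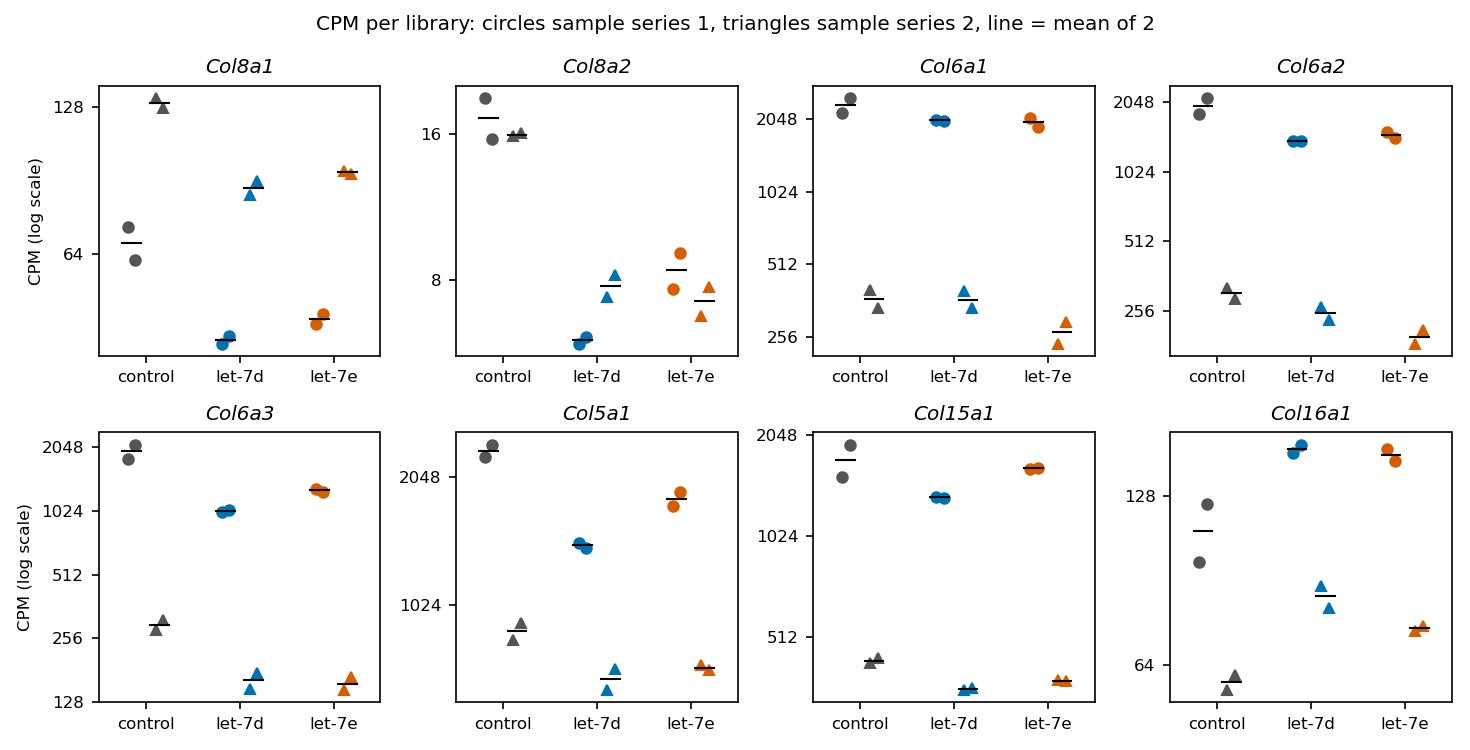
CPM of 8 chains in each of the 12 libraries on a log axis with base 2, by group, with circles for series 1, triangles for series 2 and a line at the mean of 2 libraries. Within a series every mimic library lies under both controls for Col8a1, Col8a2, Col6a2, Col6a3 and Col5a1, and above both for Col16a1.

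Among the 10 fibrillar chains, 2 fell with let-7d (Col5a1 and Col11a1), 1 fell with let-7e (Col5a1) and none rose, beside 9.81% and 5.69% of all tested genes called lower. In limma-voom 1 fell with let-7d, and in DESeq2 and limma-voom 2 fell with let-7e, Col24a1 being the one added. Collagen V sets the diameter of collagen I fibrils from within, and Col5a1 (chromosome 2, 27886425 to 28039514, plus strand) is its main chain. Col5a1 had 2285 and 2443 CPM in the controls of series 1 and 848 and 929 CPM in those of series 2. With let-7d it had 1435 and 1396 CPM and 646 and 727 CPM, and with let-7e it had 1756 and 1892 CPM and 739 and 722 CPM. Each mimic library lay under both controls of its series. The log2 fold change was -0.60 ± 0.074 (edgeR adjusted p = 7.62e-05) with let-7d and -0.34 ± 0.074 (edgeR adjusted p = 0.00835) with let-7e, and within series 2 alone the let-7e change was -0.28 with an edgeR adjusted p of 0.129. Exons of Col5a1 overlap those of 2810430I11Rik and Gm13372 on the other strand by 99 and 113 bases, and reads there cannot be assigned, as no source used here names the strand setting of the counting.

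Its partner Col5a2 has an 8mer site and was not called, at -0.14 ± 0.066 with let-7d and -0.07 ± 0.066 with let-7e. Within series 1 alone it was called lower with let-7d, at -0.27 ± 0.070 (edgeR adjusted p = 0.0259), where series 2 gave 0.01 ± 0.075 (edgeR adjusted p = 0.963). Per length the ratio of Col5a1 to Col5a2 went from 1.06 to 0.738 with let-7d and to 0.854 with let-7e in series 1. In series 2 it went from 0.307 to 0.233 and to 0.260. The controls did not overlap the mimic libraries within a series. The third collagen V chain, Col5a3, was not called, at 0.01 ± 0.098 with let-7d and 0.23 ± 0.097 with let-7e. Without control replicate 2 the let-7e change was 0.37 and called (edgeR adjusted p = 0.0107).

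Col11a1, a chain of the cartilage-type fibril collagen XI that can also join collagen V, had 10.8 and 12.4 CPM in the controls of series 1 and 48.1 and 74.2 CPM in those of series 2. With let-7d it had 6.06 and 6.20 CPM and 40.8 and 53.8 CPM, and with let-7e it had 7.69 and 9.99 CPM and 50.6 and 54.2 CPM. In series 2 the groups overlapped. The let-7d fall was 0.57 ± 0.14 in log2 units (log2 fold change -0.57, edgeR adjusted p = 0.0116), a call that was lost without control replicate 4 (edgeR adjusted p = 0.0698) and in limma-voom (adjusted p = 0.0862). With let-7e the change was -0.29 ± 0.14 and was not called (edgeR adjusted p = 0.226), but without control replicate 3 it was -0.47 and called (edgeR adjusted p = 0.0149). Markers of cartilage and bone cells, with which collagen XI is best known, summed to 25.2 to 67.6 CPM over the 5 of 10 listed genes that were measured, and the defining genes Acan and Comp were not analysed here.

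Col24a1, a fibril chain of bone and cornea, had 14.3, 14.9, 5.25 and 3.87 CPM in the controls, 14.6, 12.5, 5.91 and 3.76 CPM with let-7d, and 11.6, 10.9, 3.41 and 3.18 CPM with let-7e. All 4 let-7e libraries lay under their own controls. The let-7e change of -0.42 ± 0.13 was not called (edgeR adjusted p = 0.0516) and lay close to the threshold. It was called without control replicate 4 (edgeR adjusted p = 0.0265), let-7d replicate 3 (0.0155) or let-7d replicate 4 (0.047). Series 1 alone called it at -0.38 (edgeR adjusted p = 0.0432), as did RLE scaling (edgeR adjusted p = 0.0489), the fit of only the control and let-7e libraries (edgeR adjusted p = 0.0282), DESeq2 (adjusted p = 0.0221) and limma-voom (adjusted p = 0.0334). The let-7d change was -0.07 ± 0.13.

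The remaining fibrillar chains, Col1a1, Col1a2, Col3a1, Col27a1 and Col11a2, were not called. Col27a1 changed by 0.02 ± 0.099 with let-7d and 0.03 ± 0.097 with let-7e, and Col11a2, at 1.49 to 3.83 CPM, by 0.52 ± 0.21 and 0.45 ± 0.21. Col1a1 and Col1a2, named here for their abundance and outside the rule for named genes as are Col3a1, Col5a2 and Col5a3, changed by -0.01 ± 0.068 and -0.06 ± 0.056 with let-7d, and by 0.10 ± 0.068 and 0.04 ± 0.056 with let-7e. The 95% interval of the Col1a1 change ran from -0.14 to 0.13 with let-7d and from -0.03 to 0.23 with let-7e. These intervals use the normal quantile and are somewhat too narrow for a fit with 8 residual degrees of freedom. Col3a1 had 9417, 9202, 7454 and 7542 CPM in the controls, 8967, 8755, 9587 and 9185 CPM with let-7d, and 9751, 9680, 7759.9 and 9484 CPM with let-7e. Its let-7d libraries lay under the controls in series 1 and above them in series 2, at -0.12 ± 0.069 and 0.31 ± 0.086.

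Collagen XVI, from Col16a1, is a FACIT collagen found on fibrils and at cell contacts, and Col16a1 was the member that rose with both mimics. Col16a1 (chromosome 4, 130047840 to 130099283, plus strand) had 97.7, 124, 57.9 and 61.6 CPM in the controls, 152, 158, 88.6 and 81.0 CPM with let-7d, and 155, 148, 73.6 and 75.3 CPM with let-7e. Each mimic library lay above both controls of its series. On the log2 scale it rose by 0.46 ± 0.065 with let-7d (edgeR adjusted p = 0.000226) and by 0.38 ± 0.065 with let-7e (edgeR adjusted p = 0.00184). Within series 2 alone the let-7e change was 0.32 with an edgeR adjusted p of 0.064.

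The other 4 FACIT chains, Col9a3, Col12a1, Col14a1 and Col20a1, were not called with either mimic. Col14a1, whose collagen XIV binds fibrils in skin and tendon, had 165 and 173 CPM in the controls of series 1 and 109 and 94.9 CPM in those of series 2. With let-7d it had 95.7 and 107 CPM in series 1, under both controls, and 113 and 109 CPM in series 2, overlapping them. With let-7e it had 119 and 114 CPM in series 1, and 68.8 and 108 CPM in series 2, where let-7e replicate 3 lay under both controls and replicate 4 between them. Within series 1 it fell by 0.78 ± 0.069 with let-7d (edgeR adjusted p = 4.62e-05) and by 0.56 ± 0.068 with let-7e (edgeR adjusted p = 0.000591), while series 2 alone gave 0.11 ± 0.15 and -0.21 ± 0.16. The difference of the let-7d change between the series was 0.87 ± 0.20, with an edgeR adjusted p of 0.0686, which was 0.0113 without let-7e replicate 3 and 0.0112 without let-7e replicate 4. Over both series the change was -0.34 ± 0.15 with let-7d and -0.40 ± 0.14 with let-7e, with edgeR adjusted p of 0.126 and 0.0953. Without control replicate 4 both were called, at -0.46 (edgeR adjusted p = 0.0452) and -0.52 (edgeR adjusted p = 0.0332). Col12a1 changed by -0.08 ± 0.052 with let-7d and -0.05 ± 0.052 with let-7e, and Col20a1, at 7 to 37 counts per library, by -0.02 ± 0.29 and 0.26 ± 0.27. Col9a3 had 10 to 36 counts per library. In CPM the Col9a3 values were 0.905, 0.796, 0.494 and 0.421 in the controls and 0.790, 0.584, 0.591 and 1.04 with let-7d. With let-7e they were 0.703, 0.954, 1.08 and 0.954. Col9a3 changed by 0.20 ± 0.31 with let-7d and 0.53 ± 0.29 with let-7e, and 234 of its exon bases overlap Tcfl5 on the other strand.

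The multiplexins are basement membrane collagens whose C-terminal fragments, endostatin of Col18a1 and restin of Col15a1, act on vessel growth. Col15a1 (chromosome 4, 47208161 to 47313167, plus strand) had 1537 and 1914 CPM in the controls of series 1 and 426 and 444 CPM in those of series 2, and with let-7d it had 1339 and 1330.3 CPM and 355 and 359 CPM. With let-7e it had 1623 and 1635 CPM and 379 and 378 CPM, between the controls in series 1 and under them in series 2. Its fall with let-7d had a log2 fold change of -0.37 ± 0.064 (edgeR adjusted p = 0.00107), and the let-7e change of -0.15 ± 0.064 was not called (edgeR adjusted p = 0.163), though it was without control replicate 1 (-0.21, edgeR adjusted p = 0.0346). Col18a1 had 167, 167, 59.6 and 58.8 CPM in the controls, 168, 149, 73.9 and 68.2 CPM with let-7d, and 156, 148, 49.9 and 58.1 CPM with let-7e. With let-7d it lay above the controls in series 2 alone, and it was not called, at 0.05 ± 0.074 with let-7d and -0.15 ± 0.073 with let-7e.

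Transmembrane chains are cell-surface collagens with a short cytoplasmic part, and both were rare here. Col23a1 had 22 to 79 counts per library, which is 1.94, 1.46, 1.44 and 0.969 CPM in the controls, 4.54, 2.92, 1.93 and 1.67 CPM with let-7d, and 3.08, 2.16, 2.10 and 1.15 CPM with let-7e. The let-7d libraries lay above the controls of their series. Its rise with let-7d was 0.80 ± 0.24 in log2 units (edgeR adjusted p = 0.0321), and this call was lost (edgeR adjusted p from 0.0539 to 0.113) without control replicate 1, 2 or 4 or without let-7d replicate 1 or 3. With let-7e the change was 0.52 ± 0.24 (edgeR adjusted p = 0.204).

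Col13a1 had 34 and 37 counts in the controls of series 1 and 3 and 1 in those of series 2, against 48, 72, 16 and 5 counts with let-7d and 55, 40, 7 and 2 with let-7e. At this depth the series 2 values rest on a handful of reads. In CPM the controls had 1.54, 2.45, 0.114 and 0.0421, the let-7d libraries 3.16, 3.24, 0.630 and 0.209, and the let-7e libraries 2.15, 2.01, 0.210 and 0.0795. The let-7d change of 0.93 ± 0.32 was not called (edgeR adjusted p = 0.0573), but was without control replicate 2 (1.28, edgeR adjusted p = 0.0258). DESeq2 called it with an adjusted p of 0.0353 and limma-voom with 0.0262. The let-7e change was 0.16 ± 0.33.

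Col28a1, a collagen with von Willebrand factor domains known from peripheral nerve, had 13.7, 17.6, 93.7 and 77.9 CPM in the controls, 17.0, 19.4, 154 and 133 CPM with let-7d, and 22.3, 17.1, 86.4 and 139 CPM with let-7e. The let-7d libraries lay clear of the controls in series 2 and overlapped them in series 1. Its rise with let-7d was 0.52 ± 0.15 in log2 units (edgeR adjusted p = 0.0243). That call was lost (edgeR adjusted p from 0.0539 to 0.0951) without control replicate 1 or 4 or let-7d replicate 3 or 4, and DESeq2 gave an adjusted p of 0.0973. The let-7e change was 0.37 ± 0.15 (edgeR adjusted p = 0.134), and without let-7e replicate 3 it was 0.53 and called (edgeR adjusted p = 0.018). Col7a1, the anchoring-fibril chain of skin, had 5.29, 5.31, 2.24 and 2.40 CPM in the controls, 4.94, 4.58, 2.64 and 2.88 CPM with let-7d, and 5.39, 3.97, 1.86 and 1.83 CPM with let-7e, and was not called, at -0.01 ± 0.15 and -0.25 ± 0.14.

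**Figure D5:**
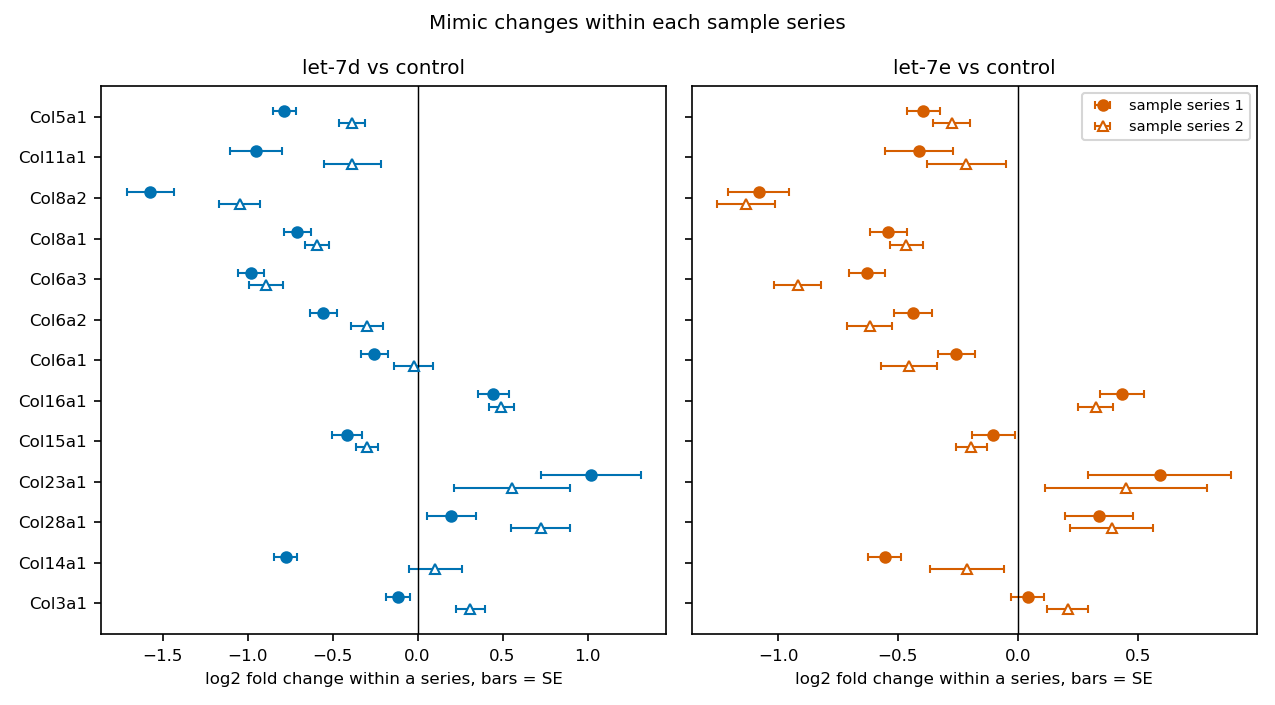
Log2 fold change against control within series 1 (filled circles) and series 2 (open triangles) for the 11 chains called with either mimic and for Col14a1 and Col3a1, with bars for the standard error. Col8a1, Col8a2, Col6a3 and Col5a1 lie below 0 in both series with both mimics, while Col14a1 and Col3a1 lie on different sides of 0 with let-7d.

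Set directly against each other, the mimics gave no called difference in any of the 27 chains, where 0.152% of all tested genes were called. By edgeR 9 chains had an unadjusted p under 0.05, and DESeq2 and limma-voom called none. A fit of only the let-7d and let-7e libraries called Col5a3, lower with let-7d by 0.22 ± 0.047 (log2 difference -0.22, edgeR adjusted p = 0.0493), a gene at -0.22 ± 0.097 with an edgeR adjusted p of 0.499 in the fit of all libraries. In that last fit the smallest adjusted p was that of Col5a1 (edgeR, 0.266), with a log2 difference (let-7d minus let-7e) of -0.25 ± 0.074. For Col15a1 it was -0.22 ± 0.064 and for Col6a1 0.21 ± 0.093, with edgeR adjusted p of 0.274 and 0.504. For Col11a1, Col15a1, Col23a1 and Col28a1, called with let-7d alone, and Col6a1, called with let-7e alone, a difference between the mimics was not shown.

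No chain with an 8mer was called lower with either mimic (0 of Col1a2, Col3a1 and Col5a2), where 24.5% of all tested genes with an 8mer were called lower with let-7d and 15.8% with let-7e. Within series 1 alone Col5a2 was called lower with let-7d (-0.27, edgeR adjusted p = 0.0259). Of the 8 members with a 7mer alone, 2 fell with let-7d (Col6a2 and Col15a1) and 1 with let-7e (Col6a2), beside 21.4% and 12.8% of such genes over the table. These counts depend on the fit. Col24a1 was also called lower with let-7e in DESeq2 (adjusted p = 0.0221) and limma-voom (adjusted p = 0.0334). Within series 1 alone Col14a1 was called lower with let-7d (edgeR adjusted p = 4.62e-05) and let-7e (edgeR adjusted p = 0.000591). Within series 2 alone Col6a2 was not called with let-7d (edgeR adjusted p = 0.0947). Col23a1, which has 2 such matches, was called higher with let-7d, as were 83 of the 1792 genes of this class over the table. Of the 16 members with no match in the 3′ UTR, 5 fell with let-7d (Col11a1, Col5a1, Col6a3, Col8a1 and Col8a2) and 5 with let-7e (Col5a1, Col6a1, Col6a3, Col8a1 and Col8a2), beside 8.66% and 4.78% of such genes. Only canonical matches in 1 annotated transcript per gene were sought, and the counts of matches among the members were the same when any annotated coding transcript was searched.

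Between the series nearly every chain differed, as did most genes. Of the 27 chains, 21 were lower and 4 higher in series 2, where 40.0% of all tested genes were lower and 41.7% higher. The median over the chains was -1.18 on the log2 scale, against 0.03 over all tested genes. The 3 main collagen VI chains were lower by similar amounts, with log2 differences of -2.75 ± 0.081 for Col6a1, -2.77 ± 0.073 for Col6a2 and -2.88 ± 0.071 for Col6a3. Col5a3 had the largest difference among the members, -3.85 ± 0.087, while its fibril partner Col5a2 was higher in series 2 by 0.39 ± 0.054.

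Col28a1 (2.58 ± 0.12), Col11a1 (2.55 ± 0.12) and Col8a1 (0.91 ± 0.045) were also higher in series 2, with edgeR adjusted p up to 6.91e-12. The fibril chains Col1a1 (-1.53 ± 0.057) and Col1a2 (-0.90 ± 0.046) were lower by unequal amounts, so that the ratio of Col1a1 to Col1a2 per length was 3.08 in the controls of series 1 and 2.01 in those of series 2. Beside these differences, all 14 measured fat cell markers were lower in series 2 (median -2.76), 12 of 15 precursor and fibroblast markers were higher and 3 lower, and 13 of 14 macrophage markers were lower. Their part in the collagen differences was not tested, and the labels give no value that tells the series apart.

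Whether a mimic acted differently in the series was tested as an interaction. No chain passed, where 0.241% of all tested genes were called for let-7d (0.0635% with a positive difference, 0.178% with a negative one) and 0.00635% for let-7e. By edgeR 8 chains had an unadjusted p under 0.05 for let-7d and 2 for let-7e. Besides Col14a1, the let-7d change of Col5a1 differed by 0.39 ± 0.11 (edgeR adjusted p = 0.141), that of Col3a1 by 0.42 ± 0.12 (edgeR adjusted p = 0.152) and that of Col18a1 by 0.36 ± 0.11 (edgeR adjusted p = 0.16).

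Collagen chains need hydroxylation, folding, export and trimming before they assemble. Of 14 measured genes for hydroxylation and glycosylation, 4 fell and 1 rose with let-7d, and 3 fell with let-7e. Over all tested genes, the background for this and the lists that follow, 9.81% were called lower and 6.41% higher with let-7d, and 5.69% lower and 3.81% higher with let-7e. The collagen prolyl 4-hydroxylase subunit P4ha2 fell by 0.61 ± 0.088 in log2 units with let-7d and by 0.34 ± 0.088 with let-7e, the lysyl hydroxylase Plod1 by 0.44 ± 0.076 and 0.30 ± 0.076, and the prolyl 3-hydroxylase P3h2 by 0.76 ± 0.19 and 0.83 ± 0.19 (edgeR adjusted p up to 0.024). Of 10 folding and export genes, 2 rose with both mimics, the endoplasmic reticulum prolyl isomerases Fkbp10 (0.48 ± 0.079 and 0.64 ± 0.079) and Fkbp14 (0.34 ± 0.059 and 0.37 ± 0.059). Tango6 fell with let-7e by 0.26 ± 0.078 and was not called with let-7d.

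Of 7 procollagen trimming genes, 1 rose and 3 fell with let-7d, and 1 rose and 1 fell with let-7e. Bmp1, the C-terminal procollagen protease, rose by 0.32 ± 0.050 with let-7d and by 0.34 ± 0.050 with let-7e. Adamts14, an N-terminal procollagen protease, fell by 0.48 ± 0.11 and 0.54 ± 0.11, and Tll1, a relative of Bmp1, fell by 0.55 ± 0.14 with let-7d and was not called with let-7e (-0.12 ± 0.14).

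Of 11 measured collagen receptors and uptake genes, 2 rose and 4 fell with let-7d, and 1 rose and 1 fell with let-7e. Antxr1, a receptor that binds collagen VI and collagen I, rose by 0.59 ± 0.084 with let-7d and by 0.54 ± 0.084 with let-7e. The collagen-binding integrin subunit Itga1 fell by 0.37 ± 0.076 and 0.49 ± 0.076, and Itga11 fell by 0.42 ± 0.068 with let-7d, with -0.17 ± 0.068 and no call with let-7e.

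Markers of other cells that make collagen moved as follows. Of 12 smooth muscle and pericyte markers, cells that also make collagen VIII, 5 fell with each mimic (all tested genes 9.81% and 5.69% lower) and none rose (median -0.27 with let-7d and -0.25 with let-7e). Myh11, the smooth muscle myosin, fell by 0.35 ± 0.073 and 0.51 ± 0.073, Actg2 by 0.47 ± 0.088 and 0.60 ± 0.088, and Acta2 by 0.34 ± 0.077 and 0.36 ± 0.077. Summed over the list, these markers lay at 3764 to 4816 CPM in the controls of series 1, 3499 to 3640.2 CPM with let-7d and 3180.3 to 3447 CPM with let-7e. In series 2 they lay at 7064 to 7567 CPM in the controls, 5753 to 6296 CPM with let-7d and 6001 to 6004 CPM with let-7e. The part of these cells in the fall of the collagen chains was not tested.

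Of 15 precursor and fibroblast markers, 4 rose and 2 fell with let-7d, and 3 rose and 2 fell with let-7e, beside 6.41% higher and 9.81% lower, and 3.81% higher and 5.69% lower, over all tested genes. Pdgfra, the receptor of fibroblasts and precursors, rose by 0.31 ± 0.052 with let-7d and 0.21 ± 0.052 with let-7e, Dpp4 rose by 0.66 ± 0.12 and 0.50 ± 0.12, and Lum, a fibril-binding proteoglycan, fell by 0.53 ± 0.14 and 0.76 ± 0.14. Of 14 fat cell markers, Lpl rose with both mimics and Lipe fell with let-7d. Of 14 macrophage markers, Lyz2 (1.10 ± 0.34) and Cd68 (0.69 ± 0.22) rose with let-7d, where DESeq2 and limma-voom called only 1 each. With let-7e 0 were called (0 by DESeq2 and limma-voom, 0 at an unadjusted p under 0.05). The macrophage markers summed to 375 to 388 CPM in the controls and 375 to 400.3 CPM with let-7d in series 1. In series 2 they summed to 30.3 to 45.9 CPM and 74.9 to 184 CPM. Of 10 markers of endothelium, 0 were called by edgeR, DESeq2 or limma-voom with either mimic (4 at an unadjusted p under 0.05 with let-7d, 0 with let-7e). Of 10 markers of mesothelium, 0 were called by any of these tools (1 at an unadjusted p under 0.05 with each mimic). The part of any of these in the collagen changes was not tested.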

How the data were processed

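The authors deposited whole-number read counts per Ensembl gene for 12 libraries, aligned with STAR to GRCm38.p6 per the submitters' processing notes. Its version, the counter and the strand setting: not given in the sources used here. A second deposited table, named for RPKM, was not used, since the gene lengths it implies differ between libraries. Symbols, exon lengths and 3′ UTRs came from GENCODE vM21 (15742 of 15754 identifiers matched). Members followed from their names alone, while the gene lists and the rule for named genes were chosen with earlier results of these data known.

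Counts were scaled by TMM and fitted with edgeR 4.0.16 (quasi-likelihood, terms for group and series, 8 residual degrees of freedom, all 15754 genes). P-values are two-sided and adjusted after Benjamini and Hochberg over all genes. SE is the log2 fold change divided by the root of F. CPM are scaled to the library total of the table, without TMM. Values in every library were given for the 3 chains per class with the smallest p over both mimic comparisons. Whether the replicate numbers pair the libraries was checked by correlation, which cannot settle it with 2 libraries per group and series. Alternatives were DESeq2 1.42.0, limma-voom (limma 3.58.1), other scalings, filters and library subsets. An n of 6 in the design text stands against 4 listed libraries per group. The 2 libraries of a group within a series never agreed within counting noise (chi-square per degree of freedom 2.58 to 12.1).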

Additional observations from a re-analysis of the deposited data

Results flagged for a closer look

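In groups of 4 libraries a value was marked when its gap to the nearest other library exceeded Dixon's 95% critical value, as a share of the group's range. Of 81 groups tested (27 chains in 3 groups) 2 were marked. The rate of about 1 in 20 by chance holds for 4 libraries of one kind and does not apply here, since each group holds 2 libraries of each series and 25 of the 27 chains were called between the series. Col3a1 with let-7e was lowest in let-7e replicate 3, at 7759.9 CPM against 9484 to 9751 CPM in the others (gap 0.866 of the range). Col8a2 in the controls was highest in control replicate 1, at 19.0 CPM against 15.6 to 16.05 CPM (gap 0.865 of the range).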

How the results depend on the processing

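Without the series term 1 chain was called lower and 0 higher with let-7d, and 0 lower and 0 higher with let-7e. With series 2 alone 0 were called higher with let-7e, and with only the groups compared 1 was called lower with let-7d than with let-7e (Col5a3). Series 2 alone lost 3 calls with let-7d (Col6a2, Col11a1 and Col23a1) and 3 with let-7e (Col5a1, Col6a1 and Col16a1). Series 1 alone lost 1 call with let-7d (Col28a1) and gained 2 (Col5a2 and Col14a1). With let-7e it lost 1 (Col6a1) and gained 2 (Col14a1 and Col24a1). RLE scaling, DESeq2, limma-voom, the filter of CPM of at least 1 in 4 libraries, and scaling without collagen genes kept the totals of called chains over all 27 within 1.5 times. Among the fibrillar chains, those lower with let-7e went from 1 to 2 (Col24a1 added by RLE, DESeq2 and limma-voom) and those lower with let-7d from 2 to 1 in limma-voom (Col11a1 lost). Leaving out 1 library at a time gave 7 lower and 1 to 3 higher with let-7d, 5 to 8 lower and 1 to 2 higher with let-7e, 0 between the mimics, 21 lower and 4 higher between the series, and 0 to 1 chains with a let-7d change that differed between series. No called chain changed sign against control in any alternative. Chains that were not called did: Col18a1 with let-7d (-0.029 without the series term, -0.12 in series 1), Col9a3 (-0.40 with let-7d and -0.092 with let-7e in series 1), and, in series 2 with let-7d, Col14a1 (0.11), Col24a1 (0.068), Col7a1 (0.24), Col6a5 (1.19) and Col5a2 (0.0086). Col3a1 did so in series 1 with let-7d (-0.12) and Col27a1 with let-7e in series 2 (-0.15) and with 1 library left out (down to -0.083). With let-7d, Col1a1, Col5a3, Col20a1 and Col27a1, all within 0.05 of 0, and Col6a5 did so in other alternatives too, between -0.093 (Col5a3) and 0.198 (Col6a5). With 1 library left out, the let-7d value ran from -0.094 to 0.081 for Col7a1, -0.213 to 0.0088 for Col24a1, -0.016 to 0.127 for Col18a1 and -0.054 to 0.442 for Col9a3, and the let-7e value from -0.0037 to 0.530 for Col13a1. The cause was not tested. The replicate block in place of the series term added calls of Col13a1 with let-7d (0.92, edgeR adjusted p = 0.0379) and Col24a1 with let-7e (-0.42, edgeR adjusted p = 0.0218) and changed no other call. Same-numbered libraries correlated at 0.426 for control and let-7d in series 2 and at -0.127 to 0.047 in the other comparisons. With 2 libraries per group and series, this cannot settle whether the numbers pair them. Depth limits Col9a3, Col13a1, Col6a5, Col20a1 and Col23a1, which have at most 80 counts in any library.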
